A study of Mus musculus with 4 samples.

Results

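A set of 8 genes of the acute phase response, Saa1, Saa2, Saa3, Lcn2, Lrg1, Hp, Cp and Slpi, were followed in imiquimod-treated mouse back skin. They were chosen by symbol, and all 8 had a row among the 20611 genes of each count table and passed the filter on low counts that left 15068 genes. The skin came from male BALB/c mice aged 8 to 9 weeks, and all of it had been treated with imiquimod (IMQ), as a 5% cream at a daily 47 mg from day 1 to day 5, and was collected on day 6. Imiquimod activates Toll-like receptor 7, and mouse skin painted with it becomes inflamed and scaly, as in psoriasis. The IMQ+IDMF group (1 library) also received, about 1 h after the cream, a lotion holding isosorbide di-(methyl fumarate), or IDMF, which is a dimethyl fumarate pro-drug. The IMQ+VEH group (2 libraries) received the vehicle lotion without the compound at that time, and the IMQ group (1 library) received the cream alone. Since every group carried imiquimod, none of the values below is relative to normal skin.

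Acute phase proteins are plasma proteins whose synthesis changes in inflammation, classically in the liver under interleukin-6, interleukin-1 and tumour necrosis factor, through STAT3, C/EBP and NF-kB. Many are also transcribed in epithelia, fat and immune cells at an inflamed site, where they bind lipids, iron or haemoglobin or restrain proteases. The 8 genes cover several of these roles. Serum amyloid A proteins (Saa1, Saa2, Saa3) are lipid-binding apolipoproteins, and Saa3 is the form made mainly outside the liver in mice. Haptoglobin (Hp) binds free haemoglobin, ceruloplasmin (Cp) is a copper-carrying ferroxidase, and lipocalin 2 (Lcn2) captures bacterial siderophores. Leucine-rich alpha-2-glycoprotein 1 (Lrg1) acts on TGF-beta signalling in endothelium, and Slpi inhibits neutrophil serine proteases.

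Total counts ranged from 21167149 to 26639628 per library, and 3 counts, taken as the floor, equalled 0.107 to 0.146 CPM (the count scaled to library size, with TMM factors). Of 10 hepatocyte markers, Apoa2, Fga and Tat had 0 counts in every library (Apoa2 with a deposited FPKM of 0.245 to 1.08 all the same), and Apoa1 and Ttr had at most 3. Alb, in contrast, had 68 counts in IMQ+IDMF, 136 and 98 in IMQ+VEH and 26 in IMQ, and Serpina1a had 76, 79 and 35, and 66 in the same libraries. Serpina1b had 29 counts in IMQ+IDMF, 111 and 55 in IMQ+VEH and 25 in IMQ. Ahsg and Cps1 were highest in IMQ: Ahsg had 8 counts in IMQ+IDMF, 10 and 0 in IMQ+VEH and 19 in IMQ. Cps1 had 1 count in IMQ+IDMF, 0 and 0 in IMQ+VEH and 8 in IMQ. The 10 markers summed to 8.32 CPM in IMQ+IDMF, 11.98 and 9.17 CPM in IMQ+VEH and 5.67 CPM in IMQ. Keratinocyte markers, in contrast, summed to 58584 CPM, 51976 and 63270 CPM, and 73704 CPM in the same libraries. The 2 IMQ+VEH libraries stood well apart for these genes. Of the 8 genes, 6 differed more than 2-fold within the pair, against 1506 of the 15068 tested genes (9.99%).

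Saa1, Saa2 and Saa3 lie together on chromosome 7 (GRCm38), in a span of 42.3 kb. Saa3 (46711998 to 46715700) and Saa1 (46740497 to 46742980) are on the minus strand, and Saa2 (46751790 to 46754313) is on the plus strand. Saa1 and Saa2 face away from each other across 8.8 kb. Lcn2 lies on chromosome 2 (32384633 to 32388252), Slpi on chromosome 2 (164354070 to 164389095), Cp on chromosome 3 (19957054 to 20009145), Hp on chromosome 8 (109575128 to 109579172) and Lrg1 on chromosome 17 (56119678 to 56122001). All are protein-coding in GENCODE M21. Exons of Cp overlap those of Hps3 on the other strand, and an exon of Slpi overlaps the microRNA gene Mir7678 on its own strand. With the strand setting not given, reads in the Cp overlap cannot be told apart from Hps3. Of the 50-base stretches in annotated Saa1 transcripts, 31.1% are also in Saa2 transcripts letter for letter, as are 30.0% of those of Saa2 in Saa1. Single-end reads of 50 cycles from those stretches cannot be placed in either gene by sequence, so the split between Saa1 and Saa2 is uncertain. Saa3 shared 4.15% of its stretches with any other gene, and Lcn2, Lrg1, Hp and Slpi shared none.

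The sequences around the starts of the Saa genes are shown because these 3 genes were lower together with lotion, with that of Lrg1, which was higher, beside them. Each runs from 250 bases before to 50 bases after the RefSeq start (GRCm38.p6), 5′ to 3′, and capitals mark letters that match a searched motif on either strand. The motifs were TTNNGNAA for C/EBP, GG with TTTCC after any 3 letters for NF-kB, TTCNNNGAA for STAT and TATAAA for the TATA box.
Saa1, chr7:46742931-46743230, minus strand: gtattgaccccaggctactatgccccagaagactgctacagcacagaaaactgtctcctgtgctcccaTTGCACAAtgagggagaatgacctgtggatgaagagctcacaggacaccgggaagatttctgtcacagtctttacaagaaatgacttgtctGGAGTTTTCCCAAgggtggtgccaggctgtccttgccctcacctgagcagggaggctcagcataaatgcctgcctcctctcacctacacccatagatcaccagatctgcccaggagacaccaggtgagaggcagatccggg
Saa2, chr7:46751583-46751882, plus strand: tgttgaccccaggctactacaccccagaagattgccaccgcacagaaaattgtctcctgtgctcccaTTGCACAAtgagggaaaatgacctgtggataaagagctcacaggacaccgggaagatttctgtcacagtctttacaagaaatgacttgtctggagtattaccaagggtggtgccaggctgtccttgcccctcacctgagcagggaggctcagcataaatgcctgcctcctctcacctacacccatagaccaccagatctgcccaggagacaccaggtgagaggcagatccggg
Saa3, chr7:46715627-46715926, minus strand: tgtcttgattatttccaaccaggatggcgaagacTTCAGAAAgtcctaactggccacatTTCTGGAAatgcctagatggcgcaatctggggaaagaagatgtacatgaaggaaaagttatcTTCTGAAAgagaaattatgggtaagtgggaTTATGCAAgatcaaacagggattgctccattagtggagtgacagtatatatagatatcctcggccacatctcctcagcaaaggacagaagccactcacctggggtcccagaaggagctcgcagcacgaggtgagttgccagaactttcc
Lrg1, chr17:56121897-56122196, minus strand: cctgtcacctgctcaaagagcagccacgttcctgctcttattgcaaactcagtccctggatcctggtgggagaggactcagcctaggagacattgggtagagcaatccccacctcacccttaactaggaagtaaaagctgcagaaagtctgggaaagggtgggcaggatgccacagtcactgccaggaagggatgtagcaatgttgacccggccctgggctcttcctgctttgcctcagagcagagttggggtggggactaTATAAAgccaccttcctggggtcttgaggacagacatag
The Saa1 and Saa2 windows were 95.3% identical over their alignment, and Saa1 and Saa3 were 54.2% identical. All 3 Saa windows held the C/EBP letters, with 4 matches in Saa3, 2 in Saa1 and 1 in Saa2. The windows of Slpi (3 matches), Lcn2 (1) and Cp (1 in each) also held the C/EBP letters, and these genes had no common direction with lotion. Of the windows searched, only that of Lrg1 lacked the C/EBP letters. These letters are common and stood in 40.7% of 32851 RefSeq windows of the same length. The NF-kB letters stood only in the Saa1 window among the 8 windows of the 7 genes that had an entry, at 91 bases before the start (position -91), where they overlap a C/EBP match, and were in 5.48% of all windows. The Lrg1 window held the TATAAA letters at position 12 and neither the C/EBP nor the NF-kB letters. STAT letters were in none of the 8 windows, and in 8.30% of all windows. A match is a description of letters and not a binding site.

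Per transcript length, the order of the 8 genes differed between the libraries. In IMQ alone Saa3 had the highest FPKM (deposited values, scaled to transcript length and library size) of the 8, at 132, followed by Lcn2 at 53.9, Slpi at 42.9, Hp at 30.6 and Saa1 at 22.0. Lrg1 at 7.90, Saa2 at 6.22 and Cp at 4.12 FPKM were lowest there. In IMQ+IDMF the order was Hp at 70.5, Lcn2 at 52.8, Slpi at 45.2, Saa3 at 22.4, Lrg1 at 19.6, Saa1 at 7.20, Cp at 3.88 and Saa2 at 0.715 FPKM. In IMQ+VEH, Hp averaged 168 ± 152 FPKM, Lcn2 78.3 ± 23.3, Slpi 42.9 ± 31.7, Saa3 27.8 ± 6.85, Lrg1 21.8 ± 13.8, Saa1 8.51 ± 5.49, Cp 7.90 ± 6.18 and Saa2 2.11 ± 2.38 (SD, n = 2). Neighbours in that IMQ+VEH order differed by less than their SDs added together. Saa3 was thus first of 8 in imiquimod-treated skin without lotion and lay behind Hp and Lcn2 in each of the 3 libraries with lotion.

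**Figure D1:**
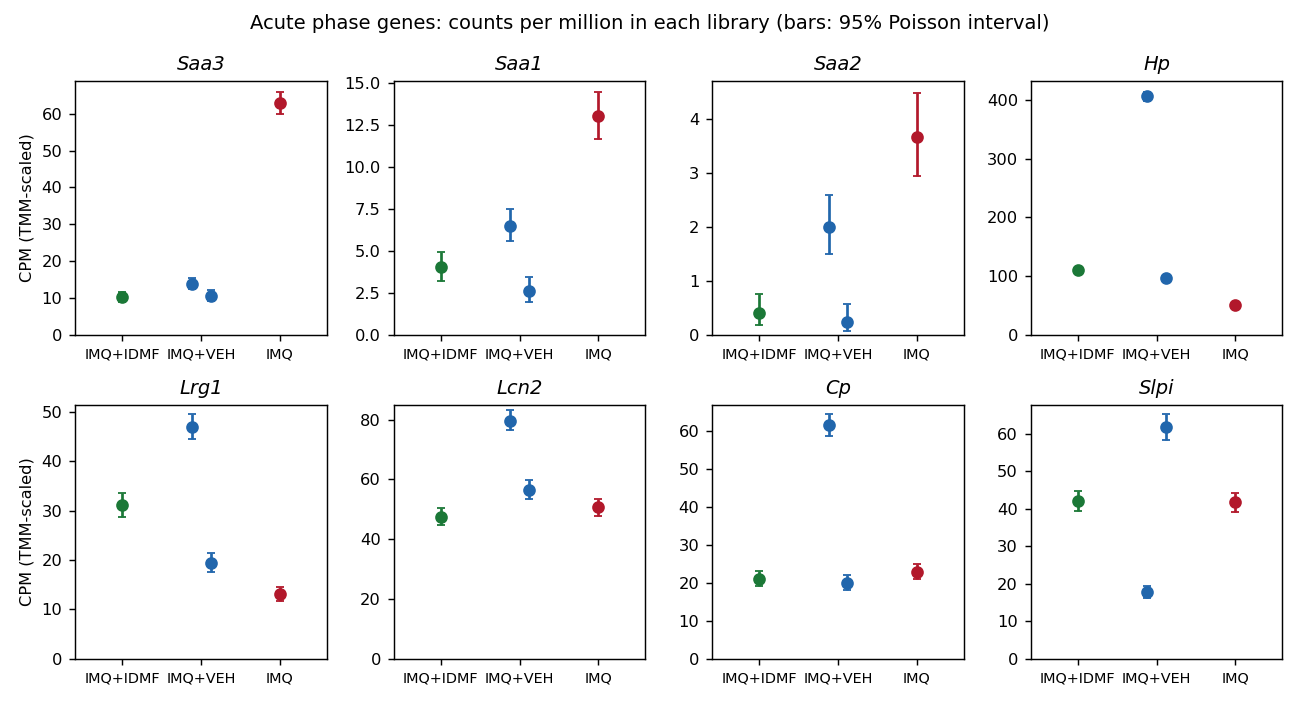
CPM (vertical axis, linear from 0) of the 8 genes, 1 point per library, in IMQ+IDMF (green), IMQ+VEH (blue) and IMQ (red), with bars for the 95% Poisson interval of the count. Saa3 had 10.2 CPM in IMQ+IDMF and 13.9 and 10.6 CPM in IMQ+VEH, against 62.8 CPM in IMQ.

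Saa1, Saa2 and Saa3 were lower in every lotion library than in imiquimod alone, and Saa3 passed the test. Saa4, a related gene outside the set, had 13 counts in IMQ+IDMF, 12 and 5 in IMQ+VEH and 9 in IMQ. Saa3 had 390 and 218 counts in IMQ+VEH, against 1594 counts in IMQ, which is 13.9 and 10.6 CPM against 62.8 CPM. Both lotion values were alike and lay far from the IMQ value. Saa3 fell by 2.35 on the log2 scale in IMQ+VEH against IMQ (SE 0.30, a 5.11-fold difference, adjusted p = 0.00328, edgeR quasi-likelihood test). IMQ+IDMF had 228 counts of Saa3 (10.2 CPM), and with the 3 lotion libraries as 1 group against IMQ the log2 fold change was -2.44 (SE 0.22, adjusted p = 0.0156, edgeR). Saa3 ranked 19 of 15068 genes by p in the first comparison and 8 in the second. These comparisons share the IMQ library, and the result rests on that 1 library.

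Saa1 and Saa2, the forms that the liver makes in quantity in a systemic response, had fewer counts. Saa1 had 90 counts in IMQ+IDMF (4.02 CPM), 182 and 54 counts in IMQ+VEH (6.49 and 2.63 CPM) and 330 counts in IMQ (13.0 CPM). All 3 lotion libraries lay below IMQ. Its log2 fold change was -1.50 (SE 0.53, adjusted p = 0.358, edgeR) in IMQ+VEH against IMQ and -1.56 (SE 0.46, adjusted p = 0.243, edgeR) for lotion against IMQ, so it did not pass the threshold of 0.05. Saa2 had 9 counts in IMQ+IDMF (0.402 CPM, Poisson interval 0.184 to 0.764), 56 and 5 counts in IMQ+VEH (2.00 CPM, and 0.244 CPM with an interval of 0.0792 to 0.569) and 93 counts in IMQ (3.66 CPM). It was also below IMQ in all 3, but the IMQ+VEH pair itself differed 8.19-fold. The log2 fold change of Saa2 was -1.67 (SE 0.92, adjusted p = 0.687, edgeR) for IMQ+VEH and -2.01 (SE 0.95, adjusted p = 0.456, edgeR) for lotion. With Saa1 and Saa2 summed into 1 gene, IMQ+VEH against IMQ gave -1.54 (adjusted p = 0.352, edgeR). Without IMQ+VEH replicate 1, lotion against IMQ gave log2 fold changes of -1.96 (SE 0.36) for Saa1 and -3.47 (SE 0.72) for Saa2, and both genes passed in that setting. The same comparison gave -1.30 and -1.59 without IMQ+VEH replicate 2, and -1.48 and -1.65 without IMQ+IDMF.

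The share of Saa2 among the counts of Saa1 and Saa2 was lower in IMQ+IDMF and IMQ+VEH replicate 2 than in IMQ+VEH replicate 1 and IMQ. Saa2 took 9.09% of 99 counts in IMQ+IDMF (exact Clopper-Pearson 95% interval 4.24 to 16.6). In IMQ+VEH it took 23.5% of 238 counts in replicate 1 (18.3 to 29.4) and 8.47% of 59 counts in replicate 2 (2.81 to 18.7). IMQ alone had 22.0% of 423 counts (18.1 to 26.2). The interval of IMQ+IDMF did not reach that of IMQ or of IMQ+VEH replicate 1. The share of IMQ+VEH replicate 2 lay beside that of IMQ+IDMF, but with 5 Saa2 counts its interval overlapped those of all other libraries. Whether the IMQ+VEH pair truly differed in this share thus stays uncertain. Intervals here cover counting error only, and the way reads common to both genes were assigned was not stated.

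**Figure D2:**
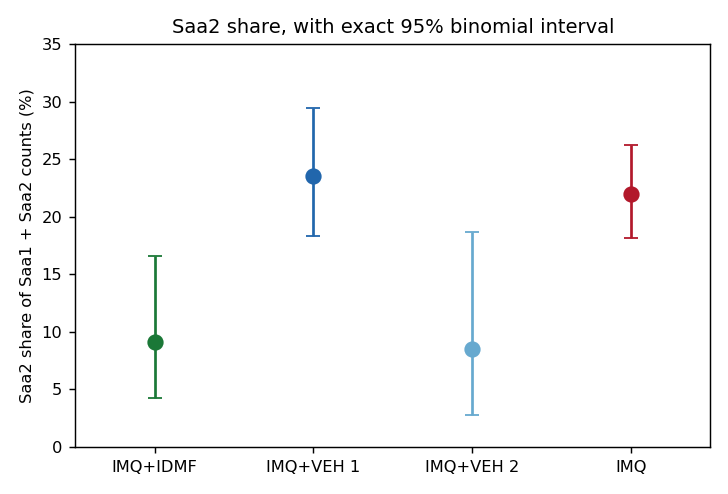
Share of Saa2 among Saa1 and Saa2 counts (percent, vertical axis) in each library, with exact 95% binomial intervals. IMQ+IDMF and IMQ+VEH replicate 2 lie at 9.09% and 8.47%, and IMQ+VEH replicate 1 and IMQ at 23.5% and 22.0%.

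Haptoglobin and Lrg1 were higher in every lotion library than in imiquimod alone, by amounts that varied widely between libraries. Neither passed in the edgeR fit of all 4 libraries with the filter on low counts. Hp had 2483 counts in IMQ+IDMF (111 CPM), 11393 and 2005 counts in IMQ+VEH (406 and 97.8 CPM) and 1280 counts in IMQ (50.4 CPM). IMQ+VEH replicate 1 stood 4.15-fold above replicate 2. The log2 fold change of Hp was 2.32 (SE 0.64, adjusted p = 0.179, edgeR) in IMQ+VEH against IMQ and 2.02 (SE 0.84, adjusted p = 0.395, edgeR) for lotion against IMQ. Without IMQ+VEH replicate 1 the second value was smaller, at 1.05, but so was its SE, at 0.19, and Hp passed in that setting. The value was 2.36 without IMQ+VEH replicate 2 and 2.34 without IMQ+IDMF. Lrg1 had 695 counts in IMQ+IDMF (31.1 CPM), 1317 and 399 counts in IMQ+VEH (46.9 and 19.5 CPM) and 333 counts in IMQ (13.1 CPM). Every lotion library was above IMQ, with IMQ+IDMF between the IMQ+VEH replicates. Its log2 fold change was 1.34 (SE 0.45, adjusted p = 0.337, edgeR) for IMQ+VEH and 1.31 (SE 0.47, adjusted p = 0.322, edgeR) for lotion. DESeq2 gave lotion against IMQ an adjusted p of 0.0351 for Lrg1, in a fit that called 525 genes, against 55 by edgeR.

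**Figure D3:**
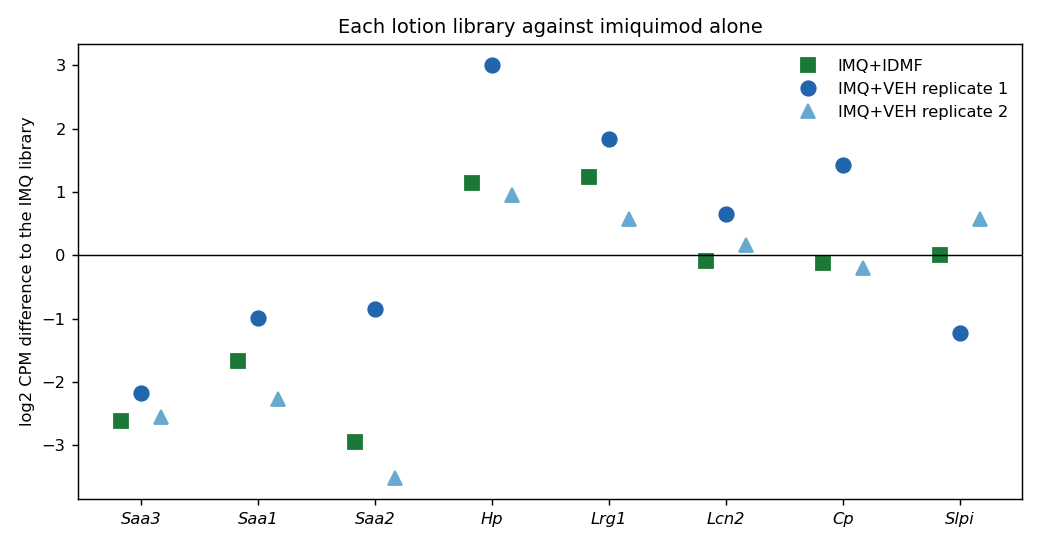
Difference in log2 CPM between each lotion library and the IMQ library (vertical axis) for the 8 genes, with IMQ+IDMF as squares, IMQ+VEH replicate 1 as circles and replicate 2 as triangles. All 3 symbols lie below 0 for Saa3, Saa1 and Saa2 and above 0 for Hp and Lrg1, and they straddle 0 for Lcn2, Cp and Slpi.

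Lcn2, Cp and Slpi had no common direction with lotion. Lcn2 had 1060 counts in IMQ+IDMF (47.4 CPM), 2235 and 1159 counts in IMQ+VEH (79.7 and 56.5 CPM) and 1285 counts in IMQ (50.6 CPM). It was above IMQ in both IMQ+VEH libraries and slightly below it in IMQ+IDMF, with a log2 fold change of 0.43 (SE 0.29, adjusted p = 0.817, edgeR) for IMQ+VEH against IMQ. Cp had 472 counts in IMQ+IDMF (21.1 CPM), 1730 and 409 counts in IMQ+VEH (61.7 and 19.9 CPM) and 582 counts in IMQ (22.9 CPM). Only IMQ+VEH replicate 1 was high, and the log2 fold change for IMQ+VEH was 0.83 (SE 0.50, adjusted p = 0.741, edgeR). For lotion against IMQ it was 0.58, and -0.16 without that replicate. Slpi had 939 counts in IMQ+IDMF (42.0 CPM), 498 and 1266 counts in IMQ+VEH (17.8 and 61.8 CPM) and 1058 counts in IMQ (41.7 CPM). The IMQ+VEH libraries lay on opposite sides of the other libraries, 3.48-fold apart, so the log2 fold change of -0.07 (SE 0.51, adjusted p = 0.997, edgeR) averages a low and a high value. IMQ+VEH replicate 1 was thus the highest library for Hp, Lrg1, Lcn2 and Cp and the lowest for Slpi.

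Across all genes, 0.664% of the 15068 tested passed in IMQ+VEH against IMQ (51 higher and 49 lower, and 140 and 62 by DESeq2), and 1 of the 8 acute phase genes did, Saa3. In lotion against IMQ, 0.365% passed (20 higher and 35 lower, and 380 and 145 by DESeq2), again with Saa3 as the 1 member. Saa3 passed as lower, as did 0.232% of all tested genes. Without the filter on low counts, Saa1, Lrg1 and Hp passed too in IMQ+VEH against IMQ, but that setting called more genes in general, 424 of 17527. By position alone, 3 of 8 genes (Saa1, Saa2, Saa3) were below IMQ in all 3 lotion libraries, as were 30.1% of all tested genes, and 2 of 8 (Hp, Lrg1) were above IMQ in all 3, as were 28.9% of all. These shares are near the background. The median log2 fold change of the 8 genes was 0.18 in IMQ+VEH against IMQ, beside 0.0025 over all tested genes.

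Set against IMQ+VEH, the IMQ+IDMF library shows the lotion with the compound beside the lotion without it. None of the 8 genes passed, nor did any other gene (0% of 15068 by edgeR, and 0 called by DESeq2). At an unadjusted p under 0.05 there were 306 genes (2.03%) and none of the 8. Saa3 and Lcn2 were the 2 of 8 genes with IMQ+IDMF below both IMQ+VEH libraries, beside 27.5% of all tested genes, and no member was above both, beside 27.7%. Saa3, at 10.2 CPM in IMQ+IDMF against 13.9 and 10.6 CPM in IMQ+VEH, gave a log2 fold change of -0.27 (SE 0.32). Lcn2 gave -0.52 (SE 0.29). The other 6 genes gave -0.19 (SE 0.56) for Saa1, -1.50 (SE 1.14) for Saa2, -0.10 (SE 0.43) for Lrg1, -1.18 (SE 0.60) for Hp, -0.95 (SE 0.51) for Cp and 0.08 (SE 0.51) for Slpi. For each of these 6 the sign depended on the IMQ+VEH library it was set against. The differences in log2 CPM to replicates 1 and 2 were -0.68 and 0.60 for Saa1, -2.10 and 0.57 for Saa2, -0.59 and 0.67 for Lrg1, -1.87 and 0.18 for Hp, -1.54 and 0.08 for Cp, and 1.24 and -0.56 for Slpi. The adjusted p was 1 for each of the 8 (edgeR). With the spread of 1 pair of libraries as the yardstick, these values do not show that the lotions acted alike. IMQ+IDMF and IMQ were 1 library each and were not tested, and the log2 CPM differences between them were -2.61 for Saa3, -2.95 for Saa2, -1.67 for Saa1, 1.14 for Hp, 1.24 for Lrg1, -0.09 for Lcn2, -0.12 for Cp and 0.01 for Slpi.

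**Figure D4:**
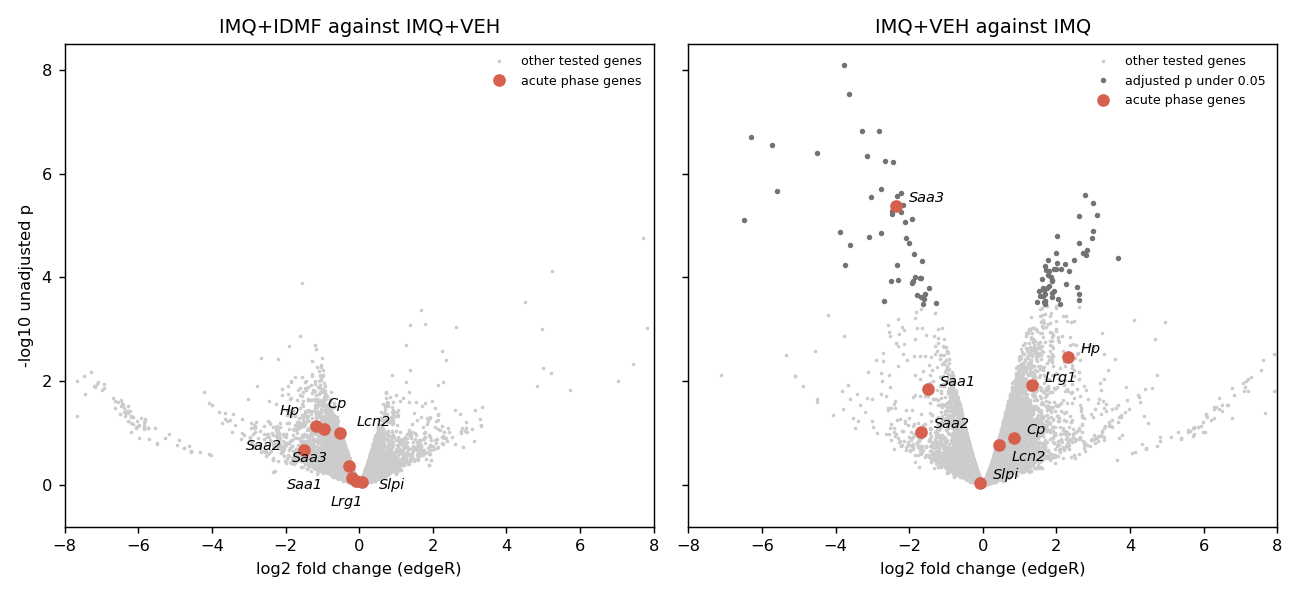
Log2 fold change (horizontal axis) against -log10 of the unadjusted p (vertical axis) for the 15068 tested genes in IMQ+IDMF against IMQ+VEH (left) and IMQ+VEH against IMQ (right), with the 8 acute phase genes in red. Saa3 at -2.35 lies among the genes with an adjusted p under 0.05 on the right, none passes on the left, and 2 genes beyond the axis limits on the right are not drawn.

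The genes with the most similar profiles over the 4 libraries were ranked by root mean square distance between log2 CPM centred on its mean, among 10116 genes with a mean log2 CPM of at least 3. Saa3 lay nearest to Sprr2e, a cornified envelope gene (distance 0.16), and Tmprss11g, an epithelial serine protease (0.20). Sprr2e had 1098 counts in IMQ+IDMF, 1574 and 1195 in IMQ+VEH and 7888 in IMQ, and fell by 2.44 on the log2 scale in IMQ+VEH against IMQ (SE 0.26, adjusted p = 0.000898, edgeR). Tmprss11g fell by 2.23 (SE 0.29, adjusted p = 0.00391, edgeR). Sprr2 genes have near-identical relatives, so the counts of Sprr2e are uncertain. Saa1 lay nearest to Klk14, a kallikrein protease of the outer epidermis (0.20), and Slc16a14 (0.26). The neighbours of Saa2 were farther away, Uox, the urate oxidase, at 0.48 and Krt6b, a stress keratin, at 0.62.

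Among the genes that were high in IMQ+VEH replicate 1, Hp lay nearest to Sfrp5, a secreted inhibitor of Wnt signalling (0.30), and Cd209b, a lectin of phagocytes (0.33). Lrg1 lay nearest to Nid2, a basement membrane protein (0.06), and Pde3b, a phosphodiesterase of adipocytes (0.07), but 59 genes lay within 0.2 of it. Cp lay nearest to F13a1, a transglutaminase of macrophages (0.10), and Nav1 (0.13), with 24 genes within 0.2. Lcn2 lay nearest to Dse, an epimerase of dermatan sulfate (0.03), and Laptm5, a lysosomal protein of blood cells (0.04), but 529 genes lay within a distance of 0.2 of its rather flat profile. Slpi lay nearest to Gsta2, a glutathione transferase (0.08), and Dapl1 (0.18). These distances rest on 4 libraries and carry no test.

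Other acute phase and plasma protein genes were counted as a list of 34, of which 26 were tested. Trf, which codes for the iron carrier transferrin, was the 1 of these 26 that passed in IMQ+VEH against IMQ, beside 0.664% of all tested genes. None passed in lotion against IMQ, beside 0.365% of all tested genes. Trf had 7798 and 2950 counts in IMQ+VEH, against 1117 in IMQ, and rose by a log2 fold change of 2.26 (SE 0.41, adjusted p = 0.0285, edgeR). The median of the list was 0.44 in IMQ+VEH against IMQ and -0.45 in IMQ+IDMF against IMQ+VEH, beside 0.0025 and -0.0083 over all tested genes. The most abundant others per length were the chitinase-like gene Chil1 (-0.90, SE 0.36, in IMQ+VEH against IMQ), the metallothioneins Mt2 (-0.06, SE 0.27) and Mt1 (0.13, SE 0.26), and the orosomucoid gene Orm1 (0.35, SE 0.34). None of these passed. Fibrinogen chains Fga, Fgb and Fgg, the pentraxin Apcs and the hepcidins Hamp and Hamp2, which the liver makes, had 0 counts in all 4 libraries.

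Of 34 genes of acute phase signalling, 33 were tested and none passed in any comparison. The list's median log2 fold change was -0.11 in IMQ+VEH against IMQ and 0.03 in IMQ+IDMF against IMQ+VEH. The most abundant per length were Cebpa, a C/EBP transcription factor (-0.11, SE 0.39, in IMQ+VEH against IMQ), Tnfrsf1a, a receptor of tumour necrosis factor (0.01, SE 0.33), Il17rc, a subunit of the interleukin-17 receptor (-0.17, SE 0.33), and Nfkbia, an inhibitor of NF-kB (-0.32, SE 0.27). Chosen after their values were seen, Il1b, an inducer of the response, had 66 counts in IMQ+IDMF, 28 and 46 in IMQ+VEH and 245 in IMQ (IMQ+VEH against IMQ -2.59, SE 0.59, adjusted p = 0.0919, edgeR). Socs3, a feedback inhibitor induced by STAT3, had 887, 1331 and 741, and 1893 counts in the same libraries (-0.83, SE 0.27, adjusted p = 0.310, edgeR). Il6 had 13 counts in IMQ+IDMF, 13 and 5 in IMQ+VEH and 1 in IMQ, too few to rank the libraries.

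Of 30 receptors, targets and partners of the 8 proteins, 26 were tested. Wfdc12, a relative of Slpi with the same kind of inhibitor domain, was the 1 that passed. It had 410 and 230 counts in IMQ+VEH, against 1327 in IMQ, and fell by 2.01 on the log2 scale (SE 0.30, adjusted p = 0.00910, edgeR). In lotion against IMQ it fell by 1.94 (SE 0.22, adjusted p = 0.0255, edgeR), with 333 counts in IMQ+IDMF. Of all tested genes, 0.325% passed as lower in the first comparison and 0.232% in the second. The related gene Wfdc5 had -0.34 (SE 0.29) in IMQ+VEH against IMQ. The ferritin genes Fth1 (0.58, SE 0.42) and Ftl1 (0.77, SE 0.40), which store iron, and Hmox1, which degrades heme (-0.02, SE 0.27), did not pass. The median of the list was 0.30 in IMQ+VEH against IMQ and -0.19 in IMQ+IDMF against IMQ+VEH.

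Markers of other cell types moved with these genes. In bulk tissue, fewer cells of a type and less RNA per cell cannot be told apart. The 10 adipocyte markers summed to 2929 CPM in IMQ+IDMF and 3868 and 2678 CPM in IMQ+VEH, against 859 CPM in IMQ. All 10 were above IMQ in the 3 lotion libraries, as were Hp and Lrg1, beside 28.9% of all tested genes. Of these, 6 passed as higher in IMQ+VEH against IMQ, beside 0.338% of all tested genes, and 3 in lotion against IMQ, beside 0.133%. Fibroblast markers summed to 2348 CPM in IMQ+IDMF, 6695 and 3518 CPM in IMQ+VEH and 1829 CPM in IMQ, and endothelial markers to 249, 349 and 173, and 155 CPM. Monocyte and macrophage markers summed to 481 CPM in IMQ+IDMF, 1253 and 696 CPM in IMQ+VEH and 755 CPM in IMQ. Skeletal muscle markers summed to 24432 CPM in IMQ+IDMF, 26079 and 18462 CPM in IMQ+VEH and 13937 CPM in IMQ. IMQ+VEH replicate 1 was highest on these 5 lists, as it was for Hp, Lrg1, Lcn2 and Cp. Also above IMQ in all 3 lotion libraries were 8 of 10 fibroblast, 7 of 10 endothelial and 8 of 10 skeletal muscle markers. Of the 14 monocyte and macrophage markers, 2 were. Sebaceous gland markers summed to 1464 CPM in IMQ+IDMF, 1120 and 1604 CPM in IMQ+VEH and 609 CPM in IMQ, and all 10 were above IMQ in the 3 lotion libraries. Of these 10, 2 passed as higher in IMQ+VEH against IMQ (Dgat2l6 and Pparg) and 1 in lotion against IMQ (Pparg, which is also on the adipocyte list). The part of these cell types in the results for Hp, Lrg1, Lcn2 and Cp was not tested.

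Alongside the Saa genes, 8 of 11 keratinocyte markers and 8 of 11 tested hair follicle markers were below IMQ in all 3 lotion libraries, beside 30.1% of all tested genes. Hair follicle markers summed to 37.6 CPM in IMQ+IDMF and 15.01 and 17.9 CPM in IMQ+VEH, against 104 CPM in IMQ. Of these, 5 passed as lower in IMQ+VEH against IMQ, beside 0.325% of all tested genes, and 1 in lotion against IMQ, beside 0.232%. Of the 11 keratinocyte markers, 1 passed, Krt6a, which was lower in lotion against IMQ (-1.92, SE 0.27, adjusted p = 0.0471, edgeR), beside 0.232% of all tested genes. Neutrophil markers summed to 1767 CPM in IMQ+IDMF and 4580 and 2219 CPM in IMQ+VEH, against 8750 CPM in IMQ, but nearly all of this was S100a8 and S100a9, which inflamed keratinocytes also make. The 11 other neutrophil markers with a row summed to 83.4 CPM, 116 and 105 CPM, and 112 CPM, and Ltf and Retnlg had at most 3 counts in every library. The part of these cell types in the Saa result was not tested. T cell markers summed to 37.6 CPM in IMQ+IDMF, 53.1 and 38.8 CPM in IMQ+VEH and 30.4 CPM in IMQ. Most of that was Thy1, which is also on the fibroblast list, and without it, a split made after the values were seen, the other 6 summed to 6.04 CPM in IMQ+IDMF, 10.2 and 7.41 CPM in IMQ+VEH and 11.9 CPM in IMQ.

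**Figure D5:**
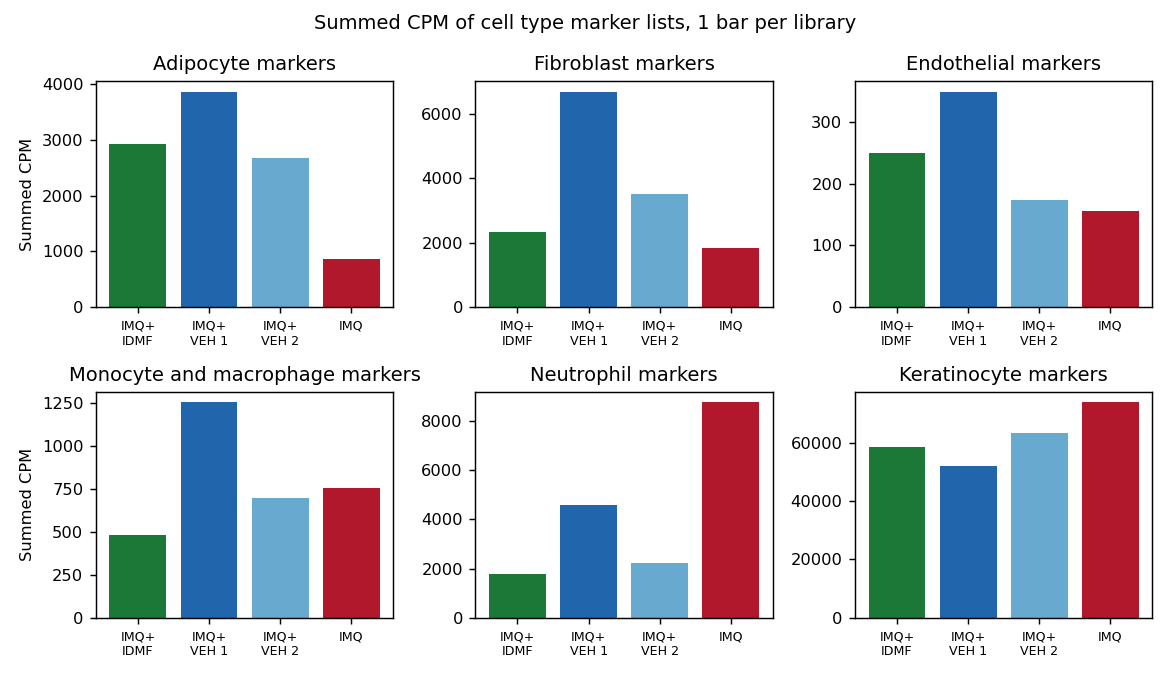
Summed CPM (vertical axis, from 0) of 6 cell type marker lists, 1 bar per library in the order IMQ+IDMF, IMQ+VEH replicate 1, IMQ+VEH replicate 2 and IMQ. Adipocyte markers are lowest in IMQ (859 CPM), neutrophil markers are highest there (8750 CPM), and the first 4 lists are highest in IMQ+VEH replicate 1.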

How the data were processed

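RNA of 4 skin samples was read from one end over 50 cycles. The authors deposited, for every gene and library, a raw count and an FPKM value, per the file headers. HTSeq, Cufflinks, TopHat2, mm10 and GRCm38 appear in the submitters' processing notes. Versions, annotation, strand setting and the treatment of reads with several matches were not given in the sources used here. The deposited counts were fitted with edgeR 4.0.16, run in R 4.3.3 (filterByExpr by group, TMM, two-sided quasi-likelihood tests, Benjamini-Hochberg over 15068 genes, threshold 0.05). With 1 mean per group only the IMQ+VEH pair gave a residual degree of freedom (1), and the single libraries were assumed to vary like that pair. Lotion against IMQ had 2. The series' design text calls the 4 samples separate biological replicates. SE is the log2 fold change over the square root of F. Differences between single libraries used log2 CPM with a prior count of 2. Deposited FPKM values served for levels between genes and, on log2(FPKM + 1), for a limma 3.58.1 alternative. DESeq2 1.42.0, other scalings and filters and left-out libraries were further alternatives. Promoters are from RefSeq (GRCm38.p6), which held 7 of the 8 genes, and positions from GENCODE M21 (GRCm38). Named genes were the 8 members, the 2 nearest by profile to each, and, from each list, those past the threshold and the 4 highest by mean FPKM, of which the examples given are a part. Il1b, Il6, Socs3, Saa4, Ahsg and Cps1 fall outside this rule and were picked after their values were seen. So do the genes named for having 0 or at most 3 counts in every library. Members and lists were chosen with earlier results of these data known.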

Additional observations from a re-analysis of the deposited data

How the results depend on the processing

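Saa3 kept its direction under every alternative, at -2.55 to -2.17 in IMQ+VEH against IMQ and -2.59 to -2.32 for lotion against IMQ, and passed wherever a test could be run except FPKM without a filter, where limma gave adjusted p-values of 0.809 and 0.265. That setting called 0 genes and 0 members in both comparisons. In IMQ+VEH against IMQ, 202 genes were called by DESeq2, 424 with 4 members (Saa1, Saa3, Lrg1 and Hp) by edgeR without a filter, and 58 with limma on log2(FPKM + 1), against 100. In lotion against IMQ, 525 genes with 2 members were called by DESeq2, 33 with total counts as scaling, 144 without a filter and 92 in a robust fit, against 55. Leaving out each lotion library in turn gave 92 to 498 genes and 1 to 4 members, with -0.16 to 0.85 for Cp and -0.48 to 0.32 for Slpi, which thus had no fixed direction. Leaving out IMQ+VEH replicate 1 gave the highest of these counts, and the members called there were Saa1, Saa2, Saa3 and Hp. In IMQ+IDMF against IMQ+VEH, 16 genes and no member were called without a filter. Lrg1 changed sign there, to 0.0046 with log2(FPKM + 0.1) and 0.23 with IMQ and IMQ+VEH as 1 group, as did Slpi for lotion with total counts (0.0061). The cause was not tested. Without either IMQ+VEH replicate the 3-group fit has no residual degree of freedom and gives no test. No paired analysis was possible because IMQ and IMQ+IDMF have 1 library each. Saa2, with 5 to 93 counts, is the gene most limited by depth.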
